A study of Mus musculus with 4 samples.

Results

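The 53 genes described here encode the 2 actins of non-muscle cells and the proteins that load, nucleate, lengthen, cap, cut, bundle, anchor and contract actin filaments, and 49 of them could be read on the arrays, out of 18193 genes with a probe set of their own. The genes were listed by function, not by a threshold on their values, with earlier results of these data known. A gene was read from every probe set (a group of short probes against the same transcript) that the platform annotation assigns to it alone, which gave 117 probe sets, and the one with the highest mean over the 4 arrays stands for the gene unless another is named. There were several probe sets for 35 genes and 1 for 14. The brightness of a probe set depends on its probes as well as on the transcript, so levels are compared between arrays and not between genes. The 4 genes without a value of their own were Twf1 and Arpc1b, whose probe sets also name another gene, and Arpc3 and Actr2, for which no probe set was listed in the annotation used here. Diaph1 was found under this symbol, its older name in the list being Diap1.

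All 4 samples were CD4+CD25+ T-cells from lymph nodes of C57BL/6 mice of 6 to 12 weeks, taken 3 days after intraperitoneal injection of the CD28 superagonist D665 (CD28SA), an antibody that activates T-cells and expands regulatory T-cells (Tregs) in particular. Before the sort, which used a stain for IL-10, the cells spent a night in culture with antibodies to CD3 (2 µg/ml) and to CD28 (5 µg/ml) and with human IL-2 (200 U/ml). Where the paper describes the arrays it does not itself name this culture. The 2 groups, IL-10+ and IL-10-, hold 2 samples each (replicates 1 and 2 against replicates 3 and 4), with 1 array per sample. No untreated sample was among them, so each value compares IL-10 producers with non-producers after the same treatment and culture. The labels do not say whether the samples came from separate mice or sorts, so the spread behind each p-value is that between the samples at hand and may be purely technical.

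Actin monomers assemble into filaments that push the membrane forward, hold the immunological synapse together and pull on adhesion sites. In T-cells the Arp2/3 complex, switched on by WASP and the WAVE proteins, branches filaments, formins and Ena/VASP proteins lengthen them, capping protein ends their growth, and cofilin takes them apart so that profilin and its partners can recharge the monomers. Free monomers also hold the cofactor MRTF-A away from serum response factor (SRF), a transcription factor that many cytoskeletal genes depend on.

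Values are the deposited variance-stabilized signals, read here as log2, and a difference is the mean of the IL-10+ samples minus that of the IL-10- samples. The 4 arrays had medians of 6.41, 6.41, 6.35 and 6.31, and their highest values were 14.28, 14.16, 14.34 and 14.42. Where the values of a group lie below the median of their arrays, it is not known here whether the probe set was above background, and the difference may be larger than stated. Probe sets near the highest values may be saturated, which was not known here either, and their differences may be understated. Il10 itself read 12.02 and 12.00 in the IL-10+ samples against 10.41 and 10.37 in the IL-10- samples, a difference of 1.62. Among 9 measured markers of Tregs and T-cells, 4 were higher in IL-10+ samples (Ctla4 by 0.87, Cd28 by 0.77, Cd4 by 0.51 and Cd3g by 0.41) and 2 were lower, Foxp3 at -0.72 and Ikzf2 at -0.55. Foxp3, the defining factor of Tregs, read 10.86 and 10.79 in the IL-10+ samples against 11.54 and 11.55 in the IL-10- samples. Of 11 measured markers of B and plasma cells 9 were lower and none was higher (Pax5 and Xbp1 did not pass), and the mean level over the list was 7.63 and 7.59 in the IL-10+ samples against 9.17 and 9.17 in the IL-10- samples. Of 7 markers of NK and cytotoxic cells 4 were lower and 1 was higher, of 9 markers of dendritic cells and macrophages 3 were higher, of 12 of stroma and endothelium 2 were higher, of 6 of neutrophils and mast cells 1 was lower, and none of 6 of erythroid cells and platelets passed. In such sorted pools, fewer cells of a type and less RNA per cell cannot be told apart.

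Over all 49 genes, 10 were higher in IL-10+ samples (20.4%), 12 were lower (24.5%) and 27 did not pass an adjusted p of 0.05 in limma. Over all 18193 genes the shares were 8.37% higher and 22.9% lower, so the lower share was near that of all genes. The median difference was 0.02 for the 49 genes and -0.01 for all genes. Most of the 49 genes read well above the medians of the arrays, so all genes are not a reference of like brightness. Bright probe sets of the whole array, with the limit set at 9, numbered 5601 and had a median difference of -0.17. Shares called higher or lower were not counted at matched brightness, here or below. The rises covered a wider range than the falls, from 0.24 in Myh9 to 2.48 in Cap1, while the falls ran from -0.25 in Gsn to -0.80 in Twf2. At the limits that the study set for its arrays, a 2-fold change together with adjusted p under 0.001, 2 genes, Cap1 and Pfn1, were higher and 0 were lower, where 0.462% of all genes were higher and 0.792% lower. After quantile normalization 15 were higher and 10 lower, and after centring each array on its median 9 and 18.

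**Figure D1:**
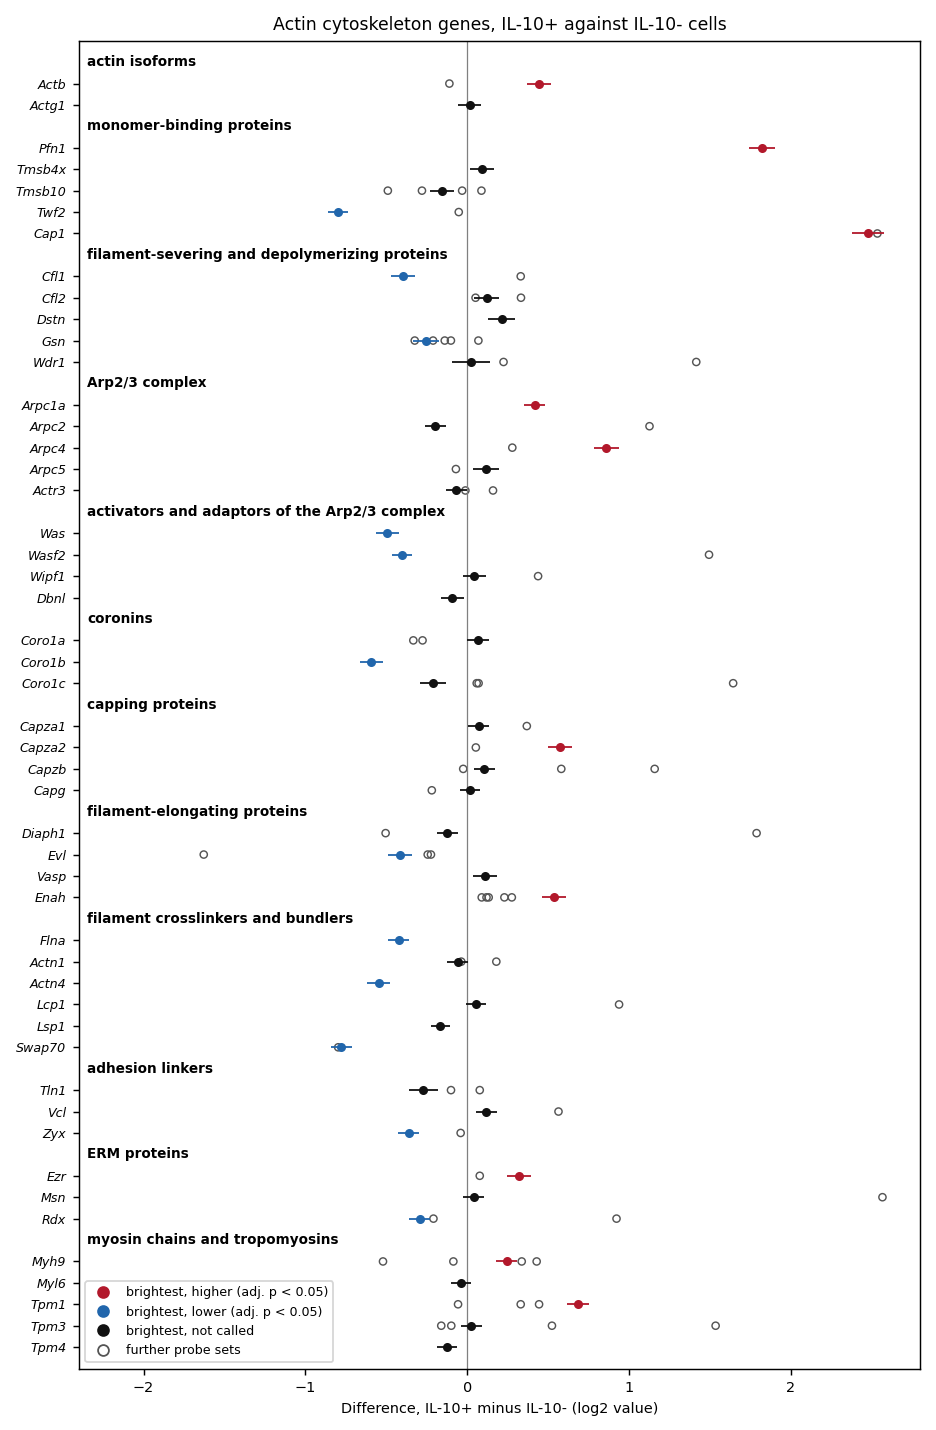
Difference between IL-10+ and IL-10- samples (log2, x axis) for the 49 measured actin cytoskeleton genes, grouped by role. Filled points are the brightest probe set of a gene with its standard error (red higher, blue lower, black not called), and open circles are its further probe sets. Among the filled points Cap1 at 2.48 and Pfn1 at 1.82 stand farthest to the right, and open circles such as that of Msn at 2.57 lie far from their filled point.

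Of the 2 actins, Actb rose and Actg1 did not pass, and both lay near the highest values of the arrays. Actb, which encodes beta-actin, read 14.16 and 14.13 in the IL-10+ samples against 13.62 and 13.78 in the IL-10- samples, and all IL-10+ values lay above all IL-10- values, a difference of 0.45 (SE 0.074, adjusted p = 0.00307). Actg1, which encodes the closely related gamma-actin, read 14.04 and 13.95 in the IL-10+ samples against 13.93 and 14.03 in the IL-10- samples. Its groups overlapped and differed by 0.02 (SE 0.071, adjusted p = 0.905). A further, dim probe set of Actb, with a mean of 7.17 over the arrays, read 7.01 and 7.21 in the IL-10+ samples against 7.06 and 7.38 in the IL-10- samples, and the difference was -0.11 (SE 0.12, adjusted p = 0.547). It changed downwards relative to the brightest one, by -0.56 (SE 0.11, adjusted p = 0.00463), a contrast that was lost without IL-10+ replicate 1 (adjusted p = 0.0634).

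The array also carries 3 control probe sets along the beta-actin transcript, which show where on the transcript the signal differed. The one at the 3' end, where the labelling of the RNA starts, read 14.21 and 14.16 in the IL-10+ samples against 13.70 and 13.88 in the IL-10- samples. The middle one read 14.01 and 13.98 in the IL-10+ samples against 12.97 and 13.22 in the IL-10- samples, and the one at the 5' end 14.07 and 14.05 in the IL-10+ samples against 12.82 and 13.06 in the IL-10- samples. The difference thus grew from 0.40 at the 3' end to 0.90 in the middle and 1.12 at the 5' end. The 5' signal minus the 3' signal was -0.14 and -0.11 in the IL-10+ samples and -0.88 and -0.81 in the IL-10- samples, so the groups lay 0.72 apart (0.67 after quantile normalization), and with 2 arrays against 2 no exact permutation test can give a two-sided p below 0.333. The 5' probe sets of 4 bacterial control transcripts, which are added to each RNA sample, read higher in the IL-10+ samples too, by 0.68 to 2.16 with a median of 1.22, while their 3' probe sets differed by -0.22 to 0.17. The position of the genes' own probe sets on their transcripts was not known here, and the part of this 5' to 3' gap in the differences given below was not tested.

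**Figure D2:**
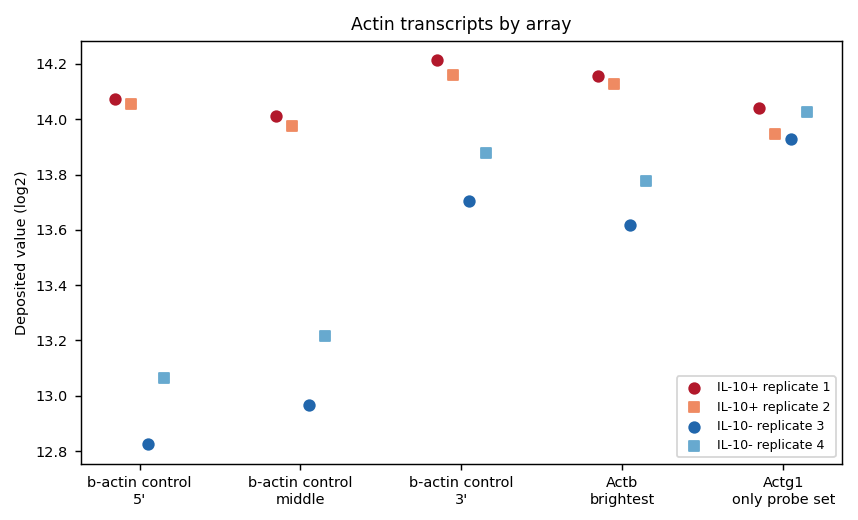
Deposited values (log2, y axis) of the beta-actin control probe sets from the 5' to the 3' end, of the brightest Actb probe set and of the probe set of Actg1, with a point for each array. The IL-10- arrays fall from 13.70 and 13.88 at the 3' end to 12.82 and 13.06 at the 5' end, the IL-10+ arrays stay between 13.98 and 14.21, and for Actg1 the groups overlap.

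Of the proteins that bind actin monomers, Cap1 and Pfn1 showed the largest rises of all 49 genes. Cap1, cyclase-associated protein, which helps to strip cofilin from monomers and to recharge them, read 8.44 and 8.67 in the IL-10+ samples against 6.17 and 5.99 in the IL-10- samples. The groups differed by 2.48 (SE 0.098, adjusted p = 8.55e-06), and by 2.53 (SE 0.10, adjusted p = 8.84e-06) in its further probe set. In both probe sets the IL-10- values lay below the medians of their arrays, so these differences may be understated. Pfn1 encodes profilin, which hands charged monomers to growing ends. It read 11.91 and 12.11 in the IL-10+ samples against 10.15 and 10.23 in the IL-10- samples in its single probe set, a difference of 1.82 (SE 0.083, adjusted p = 1.41e-05), or 3.53-fold. Twf2, a twinfilin that sequesters monomers and caps ends, fell the most of all 49 genes. It read 10.51 and 10.55 in the IL-10+ samples against 11.34 and 11.33 in the IL-10- samples and fell by 0.80 (SE 0.062, adjusted p = 9.81e-05), but its dimmer probe set differed by -0.05 (SE 0.16, adjusted p = 0.860), and the 2 probe sets differed from each other within the arrays by 0.75 (SE 0.16, adjusted p = 0.00699). Without IL-10+ replicate 2 that contrast did not pass (adjusted p = 0.0556). The thymosins, which hold monomers in reserve, did not pass: Tmsb4x differed by 0.09 (SE 0.073, adjusted p = 0.424) and Tmsb10 by -0.16 (SE 0.073, adjusted p = 0.157). On 3 arrays this probe set of Tmsb10 held the highest value of all, and Tmsb4x also lay near the top of the scale. Of the 4 further probe sets of Tmsb10, 2 less bright ones fell, by 0.49 and 0.28, and the others differed by 0.09 and -0.03. The contrast of the first with the brightest passed (adjusted p = 0.0290), but not without IL-10+ replicate 1 or 2 (adjusted p = 0.262 and 0.0565), and the fall of 0.28 was lost without either (adjusted p = 0.127 and 0.0536).

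The severing and depolymerizing proteins held no rise, and 2 of 5 fell. Cfl1, the cofilin of non-muscle cells, read 13.24 and 13.14 in the IL-10+ samples against 13.54 and 13.64 in the IL-10- samples, a difference of -0.40 (SE 0.072, adjusted p = 0.00453). Its second probe set, with a mean of 11.68, rose instead, at 0.33 (SE 0.10, adjusted p = 0.0447), and did not pass without IL-10+ replicate 2 (adjusted p = 0.283) or IL-10- replicate 3 (adjusted p = 0.0634). The contrast of the 2 within each array was 0.73 (SE 0.13, adjusted p = 0.00243) and passed without each array in turn. Cofilin thus had no direction that all its probe sets shared. Gsn, gelsolin, which cuts filaments and caps them, read 9.65 and 9.69 in the IL-10+ samples against 9.83 and 10.02 in the IL-10- samples and differed by -0.25 (SE 0.079, adjusted p = 0.0468). That call was lost without IL-10+ replicate 1 (adjusted p = 0.210), IL-10+ replicate 2 (adjusted p = 0.135) or IL-10- replicate 4 (adjusted p = 0.144), and after quantile normalization (adjusted p = 0.150). Of the dimmer probe sets of Gsn, 2 were also called lower, at -0.21 (adjusted p = 0.0430) and -0.32 (adjusted p = 0.0141). The others were not called, at -0.14, -0.10 and 0.07. After quantile normalization the one at -0.32 still passed (adjusted p = 0.0238), but neither passed without IL-10+ replicate 1 or 2. Wdr1, the partner of cofilin also known as AIP1, differed by 0.02 (SE 0.11, adjusted p = 0.917) in its brightest probe set and by 0.22 (SE 0.072, adjusted p = 0.0518) in the next, while the third rose by 1.41. That one read 10.90 and 11.06 in the IL-10+ samples against 9.87 and 9.26 in the IL-10- samples, so the IL-10- values lay far apart from each other as well. Cfl2, the muscle cofilin, and Dstn, destrin, did not pass, at 0.12 and 0.21, and without IL-10- replicate 4 Dstn differed by 0.32. The third probe set of Cfl2 rose by 0.33 (SE 0.063, adjusted p = 0.00552), with all its values below the medians of their arrays. That rise did not pass without IL-10+ replicate 1, and the second probe set of Cfl2 differed by 0.05.

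In the Arp2/3 complex, which nucleates branches, 2 of 5 measured subunits rose. Arpc4 read 10.69 and 10.86 in the IL-10+ samples against 9.95 and 9.88 in the IL-10- samples, a difference of 0.86 (SE 0.078, adjusted p = 0.000193). Arpc1a, an alternative to Arpc1b in the complex, read 9.34 and 9.40 in the IL-10+ samples against 8.92 and 8.99 in the IL-10- samples, a difference of 0.42 (SE 0.066, adjusted p = 0.00246). The second probe set of Arpc4 rose less, by 0.28, which did not pass without IL-10+ replicate 2 (adjusted p = 0.153), and it differed from the first within the arrays by -0.58 (SE 0.093, adjusted p = 0.00143). Arpc2, from the core of the complex, did not pass, at -0.20 (SE 0.066, adjusted p = 0.0594), although without IL-10- replicate 3 it was lower, at -0.24 (adjusted p = 0.0247). A dimmer probe set of Arpc2 read 8.52 and 8.53 in the IL-10+ samples against 7.29 and 7.51 in the IL-10- samples and rose by 1.13. Arpc5 differed by 0.12, and by 0.22 without IL-10- replicate 4 (adjusted p = 0.0494), and Actr3, one of the 2 actin-related proteins at the core of the complex, by -0.07.

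Upstream of the complex, 2 of 4 genes fell and none rose. Was encodes WASP, the activator of Arp2/3 in blood cells. It read 10.28 and 10.20 in the IL-10+ samples against 10.79 and 10.68 in the IL-10- samples in its single probe set, a difference of -0.49 (SE 0.070, adjusted p = 0.00147). Wasf2, a WAVE protein of lymphocytes, read 10.96 and 10.96 in the IL-10+ samples against 11.36 and 11.36 in the IL-10- samples, a difference of -0.40 (SE 0.061, adjusted p = 0.00202). Its dimmer probe set went the other way, at 8.02 and 8.05 in the IL-10+ samples against 6.71 and 6.38 in the IL-10- samples, a difference of 1.49 (SE 0.10, adjusted p = 6.59e-05). Wipf1, which encodes the WASP-interacting protein WIP, did not pass at 0.04, and its second probe set rose by 0.44 and differed from the first by 0.39 (SE 0.097, adjusted p = 0.0116), a contrast lost without IL-10+ replicate 1 or 2 (adjusted p = 0.0724 and 0.106). Dbnl, the adaptor that links actin to endocytosis and the synapse, differed by -0.09.

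The coronins, which wrap filaments and steer Arp2/3 and cofilin to them, held 1 fall among 3 genes. Coro1b read 10.23 and 10.10 in the IL-10+ samples against 10.73 and 10.79 in the IL-10- samples in its single probe set, a difference of -0.59 (SE 0.071, adjusted p = 0.000662). Coro1a, the main coronin of T-cells, did not pass at 0.07 (SE 0.066, adjusted p = 0.533), but its 2 further probe sets fell, by 0.28 and 0.33, and both contrasts with the brightest one passed. The fall of 0.28 did not pass without IL-10+ replicate 1 (adjusted p = 0.101), IL-10+ replicate 2 (adjusted p = 0.118) or IL-10- replicate 4 (adjusted p = 0.0521), nor did the fall of 0.33 without IL-10+ replicate 1 (adjusted p = 0.0583). The first contrast was lost without the same 3 arrays (adjusted p = 0.168, 0.134 and 0.0861), and the second without IL-10+ replicate 1 or 2 (adjusted p = 0.116 and 0.0615). Coro1c differed by -0.21 (SE 0.080, adjusted p = 0.0927), and it was lower, at -0.30, without IL-10- replicate 4 (adjusted p = 0.0108). A second probe set of Coro1c read 7.63 and 7.76 in the IL-10+ samples against 6.12 and 5.98 in the IL-10- samples and rose by 1.64, with the IL-10- values below the medians of their arrays, while its other 2 differed by 0.06 and 0.07.

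Capping proteins end filament growth, and 1 of 4 genes rose. Capza2, an alpha subunit of capping protein, read 11.36 and 11.35 in the IL-10+ samples against 10.71 and 10.86 in the IL-10- samples, a difference of 0.57 (SE 0.073, adjusted p = 0.000870), while its second probe set differed by 0.05 (SE 0.092, adjusted p = 0.739), a contrast of -0.52 (SE 0.094, adjusted p = 0.00263). Capza1, the other alpha subunit, did not pass at 0.07. Its second probe set rose by 0.37, a call lost without IL-10+ replicate 1 (adjusted p = 0.0576), and the contrast passed (adjusted p = 0.0316) but not without IL-10+ replicate 1 (adjusted p = 0.213), IL-10+ replicate 2 (adjusted p = 0.131) or IL-10- replicate 3 (adjusted p = 0.0557). Capzb, the beta subunit, differed by 0.11, while the second and the third probe set, with means of 11.70 and 11.08 close to the 11.81 of the first, rose by 0.58 and 1.16. The first of these 2 contrasts was lost without IL-10+ replicate 2 (adjusted p = 0.0546). The fourth, a dim one, differed by -0.03. Capg, the gelsolin-like capping protein, differed by 0.02, and its dim second probe set fell by 0.22, which did not pass without IL-10+ replicate 1 (adjusted p = 0.229), IL-10+ replicate 2 (adjusted p = 0.148) or IL-10- replicate 4 (adjusted p = 0.0940).

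Among the proteins that lengthen filaments, 2 Ena/VASP family members moved in opposite directions and the third did not pass. Enah (Mena) read 7.86 and 7.99 in the IL-10+ samples against 7.35 and 7.43 in the IL-10- samples, a difference of 0.53 (SE 0.074, adjusted p = 0.00126). All 5 further probe sets of Enah were dim, with means of 5.76 to 6.98, and differed by 0.09 to 0.28. All but the one at 0.28 changed downwards relative to the brightest within the arrays, by -0.30 to -0.44 (adjusted p from 0.00739 to 0.0450). The values of these lay below the medians of their arrays, and none of the contrasts passed without IL-10+ replicate 2. Of the 5 further probe sets, the ones at 0.28 and 0.23 were called. The first did not pass without IL-10+ replicate 1 or 2 (adjusted p = 0.151 and 0.0540), nor the second without IL-10+ replicate 1, IL-10+ replicate 2 or IL-10- replicate 4 (adjusted p = 0.158, 0.182 and 0.0900). Evl, the member of the family best known from blood cells, was dim in all 4 probe sets and fell in each. The brightest read 6.57 and 6.43 in the IL-10+ samples against 6.95 and 6.89 in the IL-10- samples, a difference of -0.42 (SE 0.073, adjusted p = 0.00408). The third read 5.78 and 5.81 in the IL-10+ samples against 7.38 and 7.47 in the IL-10- samples, a difference of -1.63 (SE 0.067, adjusted p = 9.85e-06) that may be understated, since the IL-10+ values lay below the medians of their arrays. The others fell by 0.22 and 0.25 and did not pass without IL-10+ replicate 1 (adjusted p = 0.185 and 0.136) or replicate 2 (adjusted p = 0.146 and 0.131). Vasp differed by 0.11 in its single probe set. Diaph1, a formin, differed by -0.12 (SE 0.063, adjusted p = 0.199) in its brightest probe set, fell by 0.51 in the second and rose by 1.79 in the third, which read 8.39 and 8.54 in the IL-10+ samples against 6.99 and 6.36 in the IL-10- samples. The second contrasted with the brightest by -0.38 (SE 0.090, adjusted p = 0.00952), lost without IL-10+ replicate 1 or 2 (adjusted p = 0.0749 and 0.0916), and the third by 1.91 (SE 0.18, adjusted p = 0.000106).

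Filament crosslinkers and bundlers held 3 falls among 6 genes and no rise. Swap70, which binds filaments at membrane ruffles and is known from B cells, read 7.63 and 7.58 in the IL-10+ samples against 8.34 and 8.42 in the IL-10- samples, a difference of -0.78 (SE 0.066, adjusted p = 0.000144). Its second probe set read 7.53 and 7.51 in the IL-10+ samples against 8.29 and 8.35 in the IL-10- samples and fell to the same extent, by 0.80. The B and plasma cell markers given above were lower in the same samples, and their part in this fall was not tested. Actn4, a non-muscle alpha-actinin, read 9.54 and 9.52 in the IL-10+ samples against 10.15 and 10.01 in the IL-10- samples, a difference of -0.55 (SE 0.071, adjusted p = 0.000931). Flna, filamin A, which binds filaments into a mesh, fell by 0.42 (SE 0.063, adjusted p = 0.00183). Lcp1, L-plastin, the bundler of white blood cells, had a mean of 13.12 and differed by 0.06 (SE 0.062, adjusted p = 0.576), but its second probe set read 11.99 and 12.04 in the IL-10+ samples against 11.18 and 10.98 in the IL-10- samples, a rise of 0.94. Actn1 and Lsp1, the latter a lymphocyte filament-binding protein, did not pass at -0.06 and -0.17.

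Talin, vinculin and zyxin link filaments to integrins, and 1 of the 3 fell. Zyx read 9.75 and 9.70 in the IL-10+ samples against 10.09 and 10.09 in the IL-10- samples, a difference of -0.36 (SE 0.063, adjusted p = 0.00370), and its dim second probe set differed by -0.04. The contrast between them, 0.32 (SE 0.090, adjusted p = 0.0209), was lost without IL-10+ replicate 1 or 2 (adjusted p = 0.147 and 0.124). Tln1 showed the largest difference among the genes that did not pass, -0.27 (SE 0.090, adjusted p = 0.0581), with 10.43 and 10.46 in the IL-10+ samples against 10.84 and 10.59 in the IL-10- samples. Without IL-10- replicate 4 it was lower, at -0.40 (adjusted p = 0.00110). Vcl differed by 0.12, and its second probe set rose by 0.56, with all 4 values below the medians of their arrays. Their contrast passed (adjusted p = 0.00443), except without IL-10+ replicate 2 (adjusted p = 0.0556).

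The ERM proteins, which tie filaments to the membrane and round up or polarize T-cells, held 1 rise and 1 fall among 3 genes. Ezr, ezrin, read 11.64 and 11.64 in the IL-10+ samples against 11.23 and 11.41 in the IL-10- samples, a difference of 0.32 (SE 0.076, adjusted p = 0.0159) that did not pass without IL-10+ replicate 1 (adjusted p = 0.0792) or replicate 2 (adjusted p = 0.0778). Rdx, radixin, read 10.59 and 10.54 in the IL-10+ samples against 10.88 and 10.84 in the IL-10- samples, a difference of -0.29 (SE 0.064, adjusted p = 0.0104) that was lost without the same arrays (adjusted p = 0.0526 and 0.0957) and after quantile normalization (adjusted p = 0.0945). The second probe set of Rdx differed by -0.21 (SE 0.074, adjusted p = 0.0735), and the third rose by 0.92. Msn, moesin, the dominant ERM protein of lymphocytes, read 11.75 and 11.76 in the IL-10+ samples against 11.68 and 11.75 in the IL-10- samples in its brightest probe set, with overlapping groups and a difference of 0.04 (SE 0.065, adjusted p = 0.715). Its second probe set read 10.15 and 10.14 in the IL-10+ samples against 8.01 and 7.14 in the IL-10- samples, a difference of 2.57 (SE 0.23, adjusted p = 0.000192), and its IL-10- values lay far apart from each other. The same gene thus showed no called difference or a 5.92-fold one, depending on the probe set, and the contrast of the 2 was 2.53 (SE 0.25, adjusted p = 0.000128).

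Myosin chains and tropomyosins, which contract filaments and coat them, held 2 rises among 5 genes. Tpm1 read 8.94 and 9.01 in the IL-10+ samples against 8.25 and 8.33 in the IL-10- samples, a difference of 0.69 (SE 0.068, adjusted p = 0.000278). The second and the third probe set rose as well, by 0.33 and 0.44, the former not without IL-10+ replicate 2 (adjusted p = 0.0762), and the fourth, a dim one, differed by -0.06. Myh9, the heavy chain of non-muscle myosin IIA, read 12.55 and 12.46 in the IL-10+ samples against 12.27 and 12.25 in the IL-10- samples, a difference of 0.24 (SE 0.066, adjusted p = 0.0270) that did not pass without IL-10+ replicate 1 (adjusted p = 0.223) or replicate 2 (adjusted p = 0.0752), nor after median centring (adjusted p = 0.103). Its second probe set read 11.01 and 10.85 in the IL-10+ samples against 11.35 and 11.55 in the IL-10- samples and fell by 0.52. Of the other 3, those at 0.43 and 0.34 were called higher (adjusted p = 0.00428 and 0.0108), and the one at -0.09 was not called. The rise of 0.34 did not pass without IL-10+ replicate 1 or 2. Tpm3 differed by 0.03 (SE 0.063, adjusted p = 0.820) in its brightest probe set. Its second read 10.93 and 11.06 in the IL-10+ samples against 9.57 and 9.35 in the IL-10- samples, a rise of 1.53, the fourth rose by 0.52, and the other 2 differed by -0.16 and -0.10. Myl6, a myosin light chain, and Tpm4 did not pass at -0.04 and -0.13.

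**Figure D3:**
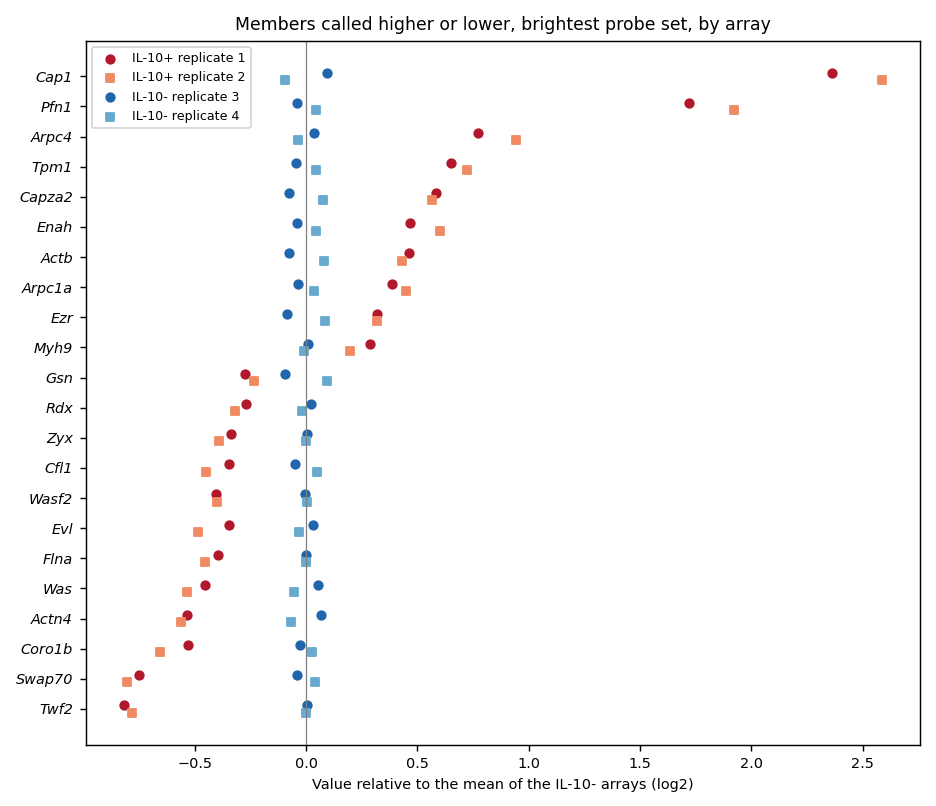
Values of the 22 called genes in each array, drawn as log2 distances from the IL-10- mean (x axis), brightest probe set only. Circles and squares are the replicates of a group. The IL-10+ values (red and orange) lie apart from the IL-10- values (blue) for each gene, from Cap1 at the top to Twf2 at the bottom, and for Gsn the gap between the groups is small. The genes were chosen by their calls on these same arrays, so this separation is no further evidence. Over all genes the groups did not overlap in 64.4%.

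Whether a gene was called depended on the probe set it was read from. Over all 117 probe sets, 35 were higher (29.9%) and 25 lower (21.4%), against 13.6% and 16.2% of all 45037 probe sets. Of the 27 genes without a called brightest probe set, 15 had a further probe set that was called, 12 of them upwards and 4 downwards, and 12 of the 49 genes had no called probe set at all. These counts were not made over all genes, so they do not set the actin cytoskeleton genes apart. Some probe sets may also bind related transcripts: those whose name carries an x on the array, as do the brightest ones of Twf2, Cfl1, Gsn and Capza1, hold probes that can match other sequences. The same caution holds for names with an s, as carried by the only probe set of Actg1 and the brightest ones of Tmsb10 and Coro1c. In 5 genes, Cfl1, Wasf2, Diaph1, Rdx and Myh9, probe sets of the same gene were called in opposite directions, which was not counted over all genes either. At the study's limits 11 probe sets were higher and 1, of Evl, was lower. The share of all probe sets that passed these limits was not counted, so nothing particular to these genes can be read from it.

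A test within each array asked whether a further probe set of a gene changed differently from the brightest one, which leaves out anything that scales a whole array. Of 68 further probe sets, 19 changed upwards relative to the brightest of their gene (27.9%) and 16 downwards (23.5%), in 25 genes. Several of the downward ones were of Enah, in probe sets with values below the medians of their arrays. Over all 16752 pairs of a further and a brightest probe set, 30.6% changed upwards and 9.31% downwards. The upward share of the actin cytoskeleton genes was thus near that of all pairs. Of these contrasts, 11 upward and 5 downward ones passed without each array in turn. The upward ones were those of Msn, Diaph1, Wasf2, Coro1c, Tpm3, Wdr1, Arpc2, Rdx, Capzb, Lcp1 and Cfl1, from 2.53 in Msn to 0.73 in Cfl1, and the downward ones those of Evl, Myh9, Tpm1, Arpc4 and Capza2. Without IL-10+ replicate 1 the number of contrasts that passed fell from 35 to 22, and without IL-10+ replicate 2 to 17.

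**Figure D4:**
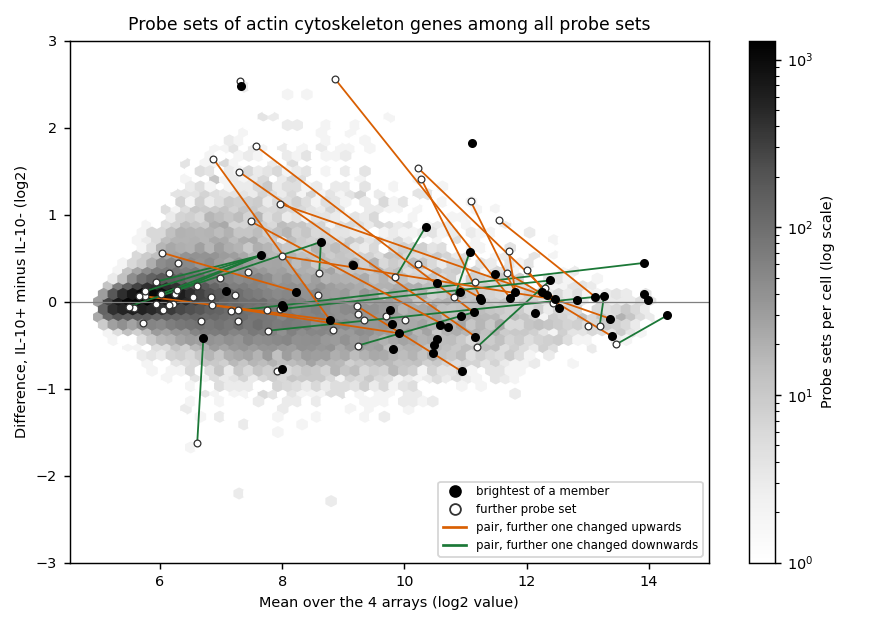
Mean over the 4 arrays (log2, x axis) against the difference between IL-10+ and IL-10- samples (log2, y axis) for all probe sets, as grey hexagons on a log count scale, where filled points are the brightest probe sets of the actin cytoskeleton genes and open points their further ones. Lines join pairs that changed differently within the arrays, orange where the further probe set changed upwards and green where it changed downwards. Further probe sets are the dimmer ones of a gene by definition, and many orange lines lead from a difference near 0 to one above 1, up to 2.57 for Msn.

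The genes that control actin were read from 4 lists. Of 57 listed genes 54 were measured, 8 were higher and 23 lower, where 8.37% of all 18193 genes were higher and 22.9% lower. When all probe sets of a gene were averaged 18 were higher and 16 lower, and with quantile-normalized values 10 and 20. Without IL-10+ replicate 2 the calls numbered 5 and 20.

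Small GTPases that steer the filament machinery are turned on by exchange factors and off by GTPase-activating proteins. Among 19 exchange factors and GTPase-activating proteins 2 were higher and 6 lower. Arhgef18, an exchange factor, read 7.45 and 7.28 in the IL-10+ samples against 8.36 and 8.39 in the IL-10- samples, a difference of -1.01 (SE 0.076, adjusted p = 8.84e-05), although its second probe set differed by 0.18. Elmo1, the partner of the DOCK exchange factors, rose by 0.69, and Arhgap25, which turns Rac off, fell by 0.54, a call that was lost without IL-10+ replicate 1 (adjusted p = 0.0610).

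Of 14 kinases and phosphatases of cofilin and myosin 2 were higher and 6 lower, and the 6 included all 3 slingshot phosphatases, which activate cofilin. Ssh2 read 9.85 and 9.82 in the IL-10+ samples against 10.78 and 10.83 in the IL-10- samples, a difference of -0.97 (SE 0.063, adjusted p = 4.86e-05). Ssh3 fell by 0.67, and Ssh1, named after its value was seen, by 0.60. Stk10, a kinase of ERM proteins, fell by 0.63, and Slk, its closest relative, rose by 0.42 (also named after its value was seen). Of 15 genes around the WAVE complex and cortactin 4 were higher and 7 lower. Cyfip2, a WAVE complex subunit, read 9.92 and 9.96 in the IL-10+ samples against 10.62 and 10.74 in the IL-10- samples, a difference of -0.74 (SE 0.069, adjusted p = 0.000222). The adaptors Nck2 and Nck1, which bring WASP family proteins to phosphorylated receptors, rose by 0.65 and 0.50. Cyfip2 and Nck1 did not pass in their second brightest probe sets (-0.09 and 0.04).

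**Figure D5:**
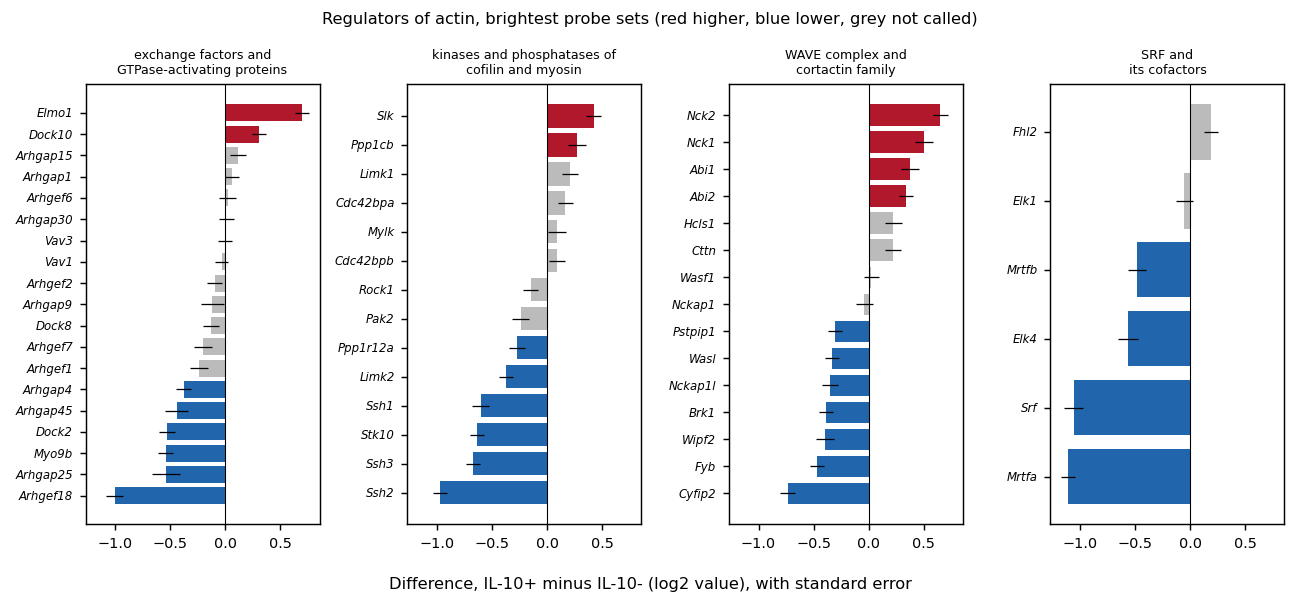
Difference between IL-10+ and IL-10- samples (log2, x axis, with standard error) for the 54 measured regulators of actin in 4 lists, brightest probe set of each. Red bars were higher, blue bars lower and grey bars not called. In the list of SRF and its cofactors 4 of 6 bars are blue and none is red, with Mrtfa at -1.11 and Srf at -1.06.

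SRF and its cofactors held 4 falls among 6 genes and no rise. Mrtfa, the cofactor that free actin monomers bind, read 8.03 and 8.06 in the IL-10+ samples against 9.15 and 9.17 in the IL-10- samples, a difference of -1.11 (SE 0.062, adjusted p = 2.81e-05). Srf read 8.50 and 8.44 in the IL-10+ samples against 9.41 and 9.65 in the IL-10- samples, a difference of -1.06 (SE 0.090, adjusted p = 0.000145). Elk4, a ternary complex factor that partners SRF, fell by 0.57, and Mrtfb, named after its value was seen, by 0.48. In the second brightest probe sets Elk4 differed by -0.06 and Mrtfb by -0.09, and neither passed.

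SRF binds the CArG box, and the promoters of the actin cytoskeleton genes were searched for it by that pattern, which is its own reverse complement. RefSeq windows of GRCm38.p6, from 250 bases before to 50 after the start of a gene, were given for 44 of the 49 genes, as 56 windows, and not for Actb, Twf2, Lsp1, Diaph1 and Coro1b. The box was found in 4 windows of 4 genes (7.14% of the windows, against 1.63% of all 32851), namely those of Arpc4, which rose, and of Actg1, Vcl and Myl6, which did not pass. A match is a description of the letters and not a shown binding site. The stretches that hold the boxes are given in the gene's direction, with the box in capitals, for Arpc4 at chr6:113377863-113377922 on the + strand (first base of the box 250 bases before the start), Actg1 at chr11:120348551-120348610 on the - strand (90 before), Vcl at chr14:20929148-20929207 on the + strand (227 before) and Myl6 at chr10:128493025-128493084 on the - strand (50 before).
Arpc4: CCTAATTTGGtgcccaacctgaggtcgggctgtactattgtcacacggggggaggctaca
Actg1: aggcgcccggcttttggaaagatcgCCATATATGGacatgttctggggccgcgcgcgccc
Vcl: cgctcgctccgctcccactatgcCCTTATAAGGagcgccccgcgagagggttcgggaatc
Myl6: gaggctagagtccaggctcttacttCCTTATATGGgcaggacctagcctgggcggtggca
The genes with the largest rises, Cap1 and Pfn1, and Swap70, which fell the most among the genes with a window, had no CArG box there. Their 250 bases before the start are shown because these genes carry the largest differences, for Cap1 at chr4:122886077-122886326 on the - strand, Pfn1 at chr11:70654651-70654900 on the - strand and Swap70 at chr7:110221453-110221702 on the + strand.
Cap1: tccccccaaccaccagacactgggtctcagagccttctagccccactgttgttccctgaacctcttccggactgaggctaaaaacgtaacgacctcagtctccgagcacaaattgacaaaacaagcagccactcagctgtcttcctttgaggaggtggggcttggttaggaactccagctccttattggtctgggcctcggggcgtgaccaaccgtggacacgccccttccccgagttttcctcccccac
Pfn1: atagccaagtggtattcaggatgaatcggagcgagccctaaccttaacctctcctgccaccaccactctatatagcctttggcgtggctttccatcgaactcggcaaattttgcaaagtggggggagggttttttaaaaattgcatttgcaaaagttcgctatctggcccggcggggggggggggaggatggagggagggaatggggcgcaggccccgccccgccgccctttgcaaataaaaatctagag
Swap70: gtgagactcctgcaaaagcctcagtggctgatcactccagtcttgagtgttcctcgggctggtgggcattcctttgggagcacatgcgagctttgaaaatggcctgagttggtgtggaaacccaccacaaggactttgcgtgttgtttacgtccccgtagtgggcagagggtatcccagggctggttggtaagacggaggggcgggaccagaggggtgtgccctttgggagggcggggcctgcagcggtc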

How the data were processed

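Total RNA of 4 sorted samples was hybridized to Affymetrix Mouse Genome arrays, 1 array per sample. Per the methods, the authors applied variance stabilization to the signals with Bioconductor packages, and how probes were summarized is not given in the sources used here. The sample labels and the methods name different labelling kits. The values as deposited were read as log2, 1 per probe set and array, which the range of the values bears out but no label states, and variance stabilization compresses the differences of dim probe sets.

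IL-10+ and IL-10- samples were compared with the lmFit and eBayes functions of limma 3.58.1 (R 4.3.3; two-sided, Benjamini-Hochberg adjustment) over the 45037 probe sets that are not among the 64 controls, with 2 residual and 5.44 prior degrees of freedom. The same fit was run on the differences between each further probe set of a gene and its brightest one, over 16752 pairs with their own adjustment. The fit on single probe sets was tested on simulated data, and the fit on pairs was not. An adjusted p under 0.05 was called. Of the probe sets, 34945 named 1 gene, 932 named several (not used), and 9160 were not listed in the annotation. Promoter windows came from RefSeq (GRCm38.p6), with no other coordinates used. Drawing used matplotlib 3.10.9 under Python 3.11.15.

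All genes that passed and the 5 with the highest means were named, with values per array for the actins and for the 2 largest differences in each direction of each role, genes whose probe sets differed were named with all of them, and up to 3 called genes were named per list of regulators. 1 list of regulators is not reported here. The genes, lists and rule were chosen with earlier results of these data known. Alternatives were quantile normalization, median centring, dim probe sets left out, a trend or robust prior, each array left out, the mean over probe sets, the second brightest probe set, probe sets without the suffixes x, s or a, and the study's limits. A fit on brightest probe sets alone was added after seeing the data. Arrays have no depth, and their number limits the precision.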

Additional observations from a re-analysis of the deposited data

Results flagged for a closer look

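Signal of a gene without a value of its own in the comparison was seen in 2 probe sets that name both Twf1, the twinfilin related to Twf2, and Gm4887, a gene of which nothing is said here. The first read 7.58 and 7.74 in the IL-10+ samples against 6.89 and 6.71 in the IL-10- samples, a difference of 0.86 (limma, adjusted p = 0.000306). The second read 7.32 and 7.46 against 6.33 and 6.64, a difference of 0.91 (adjusted p = 0.000615). The remaining probe set with the same pair of names differed by 0.18 and did not pass (adjusted p = 0.144). Arpc1b, also without a value of its own, shares its probe sets with Gm5637. The brighter one differed by 0.05 and did not pass (limma, adjusted p = 0.659). The dimmer one fell, at -0.31 (adjusted p = 0.00720). For both pairs of names, which of the named genes gave the signal was not tested.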

How the results depend on the processing

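Leaving out each array in turn gave 8 to 12 genes higher and 10 to 13 lower, and 17 to 38 probe sets that differed from the brightest of their gene, against 10, 12 and 35. Over all settings 1032 values stayed on their side of the threshold, with no called one turned but with sign changes among those not called (such as Actg1 and Msn under median centring, and Actr3 under quantile normalization), 91 no longer passed, 54 newly passed and 20 turned. With the mean over probe sets 21 genes were higher and 11 lower, and Arpc2 (0.46), Wasf2 (0.55), Coro1c (0.39), Diaph1 (0.39), Rdx (0.14) and Coro1a (-0.18) turned. With the second brightest probe set Arpc2 (1.13), Wasf2 (1.49), Coro1c (1.64), Cfl1 (0.33), Arhgef18 (0.18), Actb (-0.11), Coro1a (-0.28), Capg (-0.22) and Myh9 (-0.52) turned, and with the suffixes x, s and a left out Actb (-0.11), Cfl1 (0.33), Coro1a (-0.33) and Coro1c (1.64) did. The causes were not tested. At the study's limits 2 genes were higher and 0 lower. Median centring gave 9 higher and 18 lower, and quantile normalization 15 and 10, with the beta-actin gap at 0.67. Without each array in turn the dimmer probe set of Twf2 ran from -0.34 to 0.23, the latter without IL-10- replicate 3. A fit on brightest probe sets alone, chosen after seeing the data, gave 10 higher and 14 lower. No paired analysis was possible because the groups share no replicate numbers. The 4 arrays limit what can be called, and dim probe sets have compressed differences.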
